A study of Homo sapiens with 12 samples.

Results

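The genes of the Polycomb repressive complex 2 (PRC2) and of a group of oxygenases that succinate inhibits were examined for lysine succinylation (Ksu) and trimethylation of histone H3 at lysine 27 (H3K27me3). They are EZH1, EZH2, EED, SUZ12 and JARID2 for PRC2, and KDM6B, TET1, TET2 and TET3 for the oxygenases. These 9 of 20037 protein-coding genes were chosen by name and not by their values, but with earlier results of these data known. Each was measured over its RefSeq gene body (GRCh38.p14) with 10 kb added on either side, called its window. The cells were HepG2/C3A, a hepatocellular carcinoma line, so every library comes from a single established line. Treated cells received 10 mM sodium succinate in sterile water for 48 h, and control cells, which the design text calls vehicle, were collected after the same time. CUT&Tag, in which an antibody guides a transposase to chromatin and the released fragments are sequenced, was run with an antibody to H3K27me3 and one to succinyllysine on any protein. The labels give 2 biological replicates for each antibody and treatment, 8 libraries in all. Libraries of IgG are not used here, and the antibody background is therefore not known.

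PRC2 places H3K27me3, a mark of silenced developmental genes. EZH2 and EZH1 are its alternative catalytic subunits. EED binds the mark and stimulates the enzyme, SUZ12 holds the complex together, and JARID2 is an accessory subunit that helps to bring it to its targets. KDM6B removes H3K27me3. TET1, TET2 and TET3 oxidise methylated cytosine in DNA, the first step of its active removal. KDM6B and the TET enzymes use iron and 2-oxoglutarate and release succinate as a product, and an excess of succinate inhibits them. Liver cells keep PRC2 active at genes of other lineages, and H3K27me3 at a gene's own promoter goes with silencing in most tissues. A peak over these genes describes chromatin at the loci and not the amount or activity of the proteins they encode.

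The promoters that the results turn on are shown first, because 2 of them held the Ksu peaks found over a member's start and the third was the promoter of the group richest in CpG. The RefSeq table of GRCh38.p14 gave 16 promoters for the 9 genes, each with 250 bases before and 50 after a transcription start. They are written 5′ to 3′ on the strand of the gene, in lower case, with each CpG, the target of DNA methylation and TET oxidation, in capitals. The TET1 promoter lies at chr10:68560087-68560386 on the plus strand, the promoter of the second TET3 start at chr2:74002442-74002741 on the plus strand, and the promoter of the first EZH2 start at chr7:148884242-148884541 on the minus strand.
TET1: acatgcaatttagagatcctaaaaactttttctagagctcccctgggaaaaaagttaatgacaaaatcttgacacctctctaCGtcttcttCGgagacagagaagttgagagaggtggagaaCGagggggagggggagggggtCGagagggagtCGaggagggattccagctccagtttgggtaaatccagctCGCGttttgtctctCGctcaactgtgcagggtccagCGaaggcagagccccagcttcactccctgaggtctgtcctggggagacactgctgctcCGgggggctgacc
TET3: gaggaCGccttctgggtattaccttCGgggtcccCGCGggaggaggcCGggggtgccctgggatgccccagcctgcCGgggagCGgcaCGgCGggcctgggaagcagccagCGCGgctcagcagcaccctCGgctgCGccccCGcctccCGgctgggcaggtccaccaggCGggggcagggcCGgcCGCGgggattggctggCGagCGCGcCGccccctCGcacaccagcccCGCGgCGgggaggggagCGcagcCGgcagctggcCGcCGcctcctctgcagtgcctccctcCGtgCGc
EZH2: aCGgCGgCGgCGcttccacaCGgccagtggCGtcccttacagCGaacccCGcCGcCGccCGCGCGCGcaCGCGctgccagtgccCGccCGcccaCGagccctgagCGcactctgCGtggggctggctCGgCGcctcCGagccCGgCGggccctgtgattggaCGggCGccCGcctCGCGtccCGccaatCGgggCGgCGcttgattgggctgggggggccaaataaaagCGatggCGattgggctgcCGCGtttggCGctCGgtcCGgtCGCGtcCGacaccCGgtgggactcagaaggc
The TET1 stretch holds 10 CpG, that of TET3 holds 33 and that of EZH2 holds 46. Over the 16 promoters the number ran from 2, at the second KDM6B start, to 46, with a median of 27 beside 21 for the 22199 promoters of protein-coding genes. No H3K27me3 peak touched any of the 16 promoters in any library, and 17.3% of all promoters had such a peak in at least 1 library. A Ksu peak touched 2 of the 16 in at least 1 library, against 25.2% of all promoters. At TET1 it was seen in succinate replicate 1 only, from 543 bases before to 459 after the start, and covered the whole stretch printed above. At TET3 it was seen in control replicate 2 only, from 120 bases before to 71 after the second start. The 2 promoters carrying a Ksu peak therefore came from opposite treatments, with 1 library each. The short words TTTCCCGC, TTTCGCGC, TTTGCCGC and TTTGGCGC, forms of the E2F site typical of genes of proliferating cells, were searched on both strands. EZH1 had TTTGCCGC, EZH2 TTTGGCGC and SUZ12 TTTCCCGC, so 3 of the 16 promoters held such a word, all of them at PRC2 genes, and 4.10% of all promoters did. CCAAT, searched likewise, was in 7 promoters of 6 member genes and in 34.7% of all promoters. These matches describe the sequence only, and no peak of either antibody was found over the EZH1, EZH2 or SUZ12 promoters.

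The libraries differed widely before any gene was considered. The lists held 5531 to 19133 H3K27me3 peaks and 76702 to 629903 Ksu peaks. Ksu peaks covered 2.38% and 5.46% of all protein-coding windows in control replicates 1 and 2, and 6.65% and 11.95% in the succinate replicates. Read depth is not given with peak lists, and each list has its own scale of signal, so heights are given in steps, the smallest unit in which a library's values rise, and treatments are compared by the share of bases under peaks. Beside that share, called the cover, stands the relative cover, which is the cover divided by that of all protein-coding windows in the same library. In bulk libraries, more cells carrying a modification and more of it per cell cannot be told apart. With 2 libraries against 2 the exact two-sided permutation test cannot give a p below 0.333, so no difference could pass 0.05. Each is set against the pooled SD of the replicates, which the labels call biological. Peak lists hold no expression, so the cell type could be checked only through H3K27me3 at marker genes. Of these, 7 of 9 windows of hepatocyte genes had no H3K27me3 peak in any library, ALB and HNF4A among them. That share was near the 64.9% of all protein-coding windows without a peak, so it does not mark the cell type by itself. APOB had a peak in every library and FOXA2 in control replicate 1. All 8 windows of neural, muscle and blood regulators had a peak in at least 1 library, and PAX6, OLIG2, MYOD1, TAL1 and SPI1 in every library. Of all protein-coding windows, 16.8% had a peak in every library.

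H3K27me3 was nearly absent from the PRC2 genes and the oxygenase genes under both treatments. EZH1, EZH2, EED, SUZ12, JARID2, TET1 and TET2 had no H3K27me3 peak in their windows in any library, and no library had one over the body of any of the 9 genes. Windows without a peak in any library were 7 of 9 here and 64.9% of all protein-coding windows, so this share was near the background. None of the 9 had a peak in every library, a pattern of 16.8% of all windows. The 9 windows together span 1125 kb, with a median of 96.9 kb beside 44.1 kb for all genes, so they gave more room for a peak than most. Together they had an H3K27me3 cover of 0.732% and 0.203% in the control libraries and 0% and 0.0645% in the succinate libraries. The difference, succinate minus control, was -0.44 percentage points, with a pooled SD of 0.267 and an exact permutation p of 0.333. It was -0.17 without control replicate 1 and -0.70 without control replicate 2, and -0.17 at equal numbers of peaks and -0.07 at a common lowest total signal in steps. All of it came from 2 windows, those of KDM6B and TET3, in the 10 kb before their starts.

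In the KDM6B window the cover was 5.45% and 5.63% in control, against 0% and 1.79% with succinate. Both succinate libraries lay below both control libraries. KDM6B was the 1 member with this pattern for H3K27me3, which 1.62% of all windows showed, and 0 members had the opposite pattern, which 7.62% showed. Its difference of means was -4.65 percentage points beside a pooled SD of 0.899, and the exact permutation p was 0.333 (Benjamini-Hochberg adjusted over all genes, 1). With the stronger 50% of peaks it was -2.73, and at a common lowest signal -1.92. The bases involved do not belong to KDM6B. They lie in DNAH2, a gene for an axonemal dynein heavy chain at chr17:7717744-7833742, whose annotated end is 474 bases before the start of KDM6B (gene 23135, chr17:7834217-7854796, plus strand).

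The peak nearest to KDM6B ran over chr17:7814503-7826429 in control replicate 1 and chr17:7814593-7826499 in control replicate 2. In succinate replicate 2 it ran over chr17:7814414-7824942, and in succinate replicate 1 a single broader peak of 37.5 kb ended at base 7822650. Its near edge therefore stood 7787 and 7717 bases from KDM6B in control, and 11566 and 9274 bases in succinate. The near edge was farther from KDM6B in both succinate libraries than in both control libraries. Cover of the whole DNAH2 body was 66.1% and 26.4% in control, against 72.0% and 57.6% with succinate, and those values overlapped. When the KDM6B window was widened to 50 kb on either side its H3K27me3 cover was 30.4% and 9.87% in control, against 31.1% and 14.5% with succinate, so the direction turned. The lower cover within 10 kb thus concerned the end of a domain in DNAH2, and it did not extend to the wider surroundings of KDM6B.

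**Figure D1:**
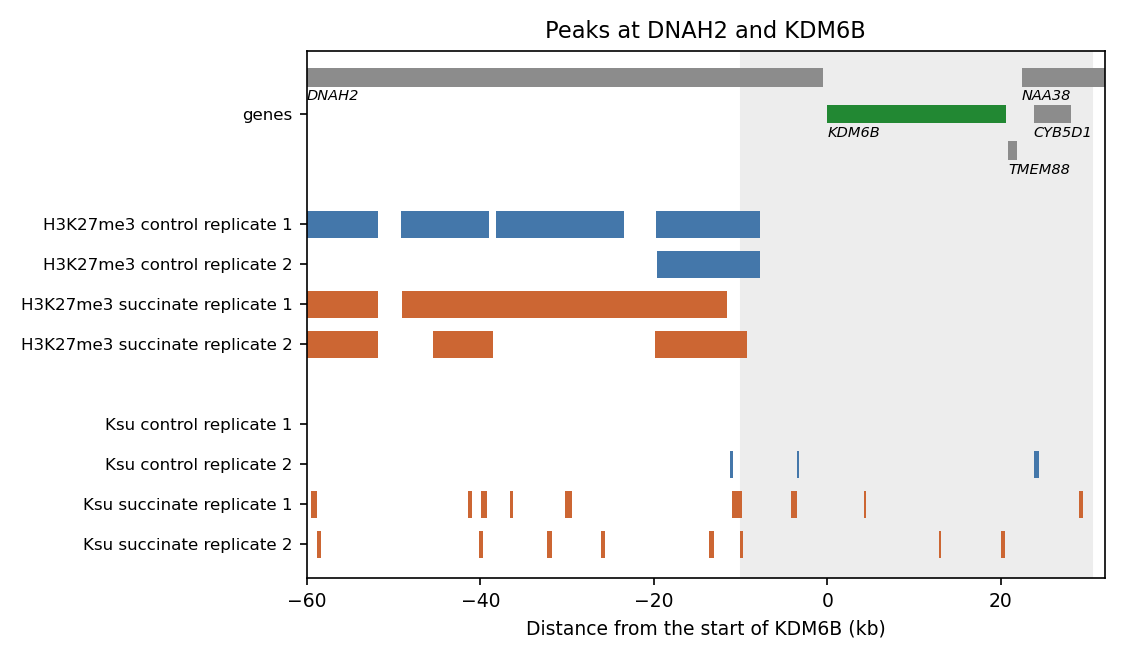
Peaks of the 8 libraries against distance from the start of KDM6B in kb, with H3K27me3 above and Ksu below, control in blue and succinate in orange. Bars are peaks, the shaded span is the KDM6B window, and the DNAH2 body runs on past the left edge. The right edge of the H3K27me3 domain stands 7.79 and 7.72 kb before KDM6B in control and 11.6 and 9.27 kb before it in succinate.

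The genes whose H3K27me3 cover over the 4 libraries was closest to that of KDM6B, by the mean absolute difference of cover, were MAP3K5 at 0.671 percentage points, CLVS1 at 1.22 and HECW2 at 1.35. MAP3K5 had 4.83% and 5.36% in control, with 0% after succinate in both libraries. TET3 was the other window with H3K27me3. Control replicate 1 had a peak of 6027 bases at chr2:73974597-73980623, which ended 3007 bases before the TET3 body (gene 200424, chr2:73983631-74135498, plus strand) and overlapped no protein-coding gene. The other 3 libraries had none there. By total signal 30.7% of the peaks in that library were weaker, and control replicate 1 is also the library with the most H3K27me3 peaks. Keeping the stronger 50% of each list, or equal numbers of peaks, left no H3K27me3 in the TET3 window.

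The mark lay at very different distances from the members. The gene body of TET2 was the farthest from it in 3 of 4 libraries, with the nearest peak 613 kb away in control replicate 1 and 2883, 2885 and 2885 kb away in control replicate 2 and succinate replicates 1 and 2. In the latter 3 libraries that peak was over LEF1, a transcription factor of the Wnt pathway, at almost the same bases. Between 89.5% and 95.6% of all protein-coding genes had a nearer peak than TET2 in the 4 libraries. TET1 stood 308, 345, 317 and 345 kb from the nearest peak in the same order of libraries, a narrow range. The TET1 libraries overlapped between treatments. For TET2 both succinate values were above both control values, though barely above control replicate 2.

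EZH2 had a peak before its start in 3 libraries, 20.6 kb away in both control libraries and 18.3 kb away in succinate replicate 1, in a stretch without a protein-coding gene. Succinate replicate 2 lacked that peak, and its nearest one was 875 kb away over ZNF467. JARID2 had a peak 16.1 kb before its start in control replicate 1. In the other 3 libraries the nearest was 144, 143 and 146 kb beyond its end. For these genes the distance followed which library had listed a given peak. EED stood 170 and 340 kb from the mark in control, over ME3, a gene for a mitochondrial malic enzyme, then 342 kb and 3506 kb in succinate. EZH1 stood 58.8 and 601 kb away in control, against 55.9 and 524 kb with succinate, so the nearer values were those of replicate 1 in each treatment. SUZ12 did likewise, with 157 and 165 kb in the first replicates and 253 and 252 kb in the second, where the peak was over RHBDL3. Over all protein-coding genes the median distance was 40.8 and 161 kb in control, against 72.7 and 147 kb with succinate. The median of the 9 members was 58.8 and 253 kb in control, against 143 and 345 kb with succinate, farther than that of all genes in every library.

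**Figure D2:**
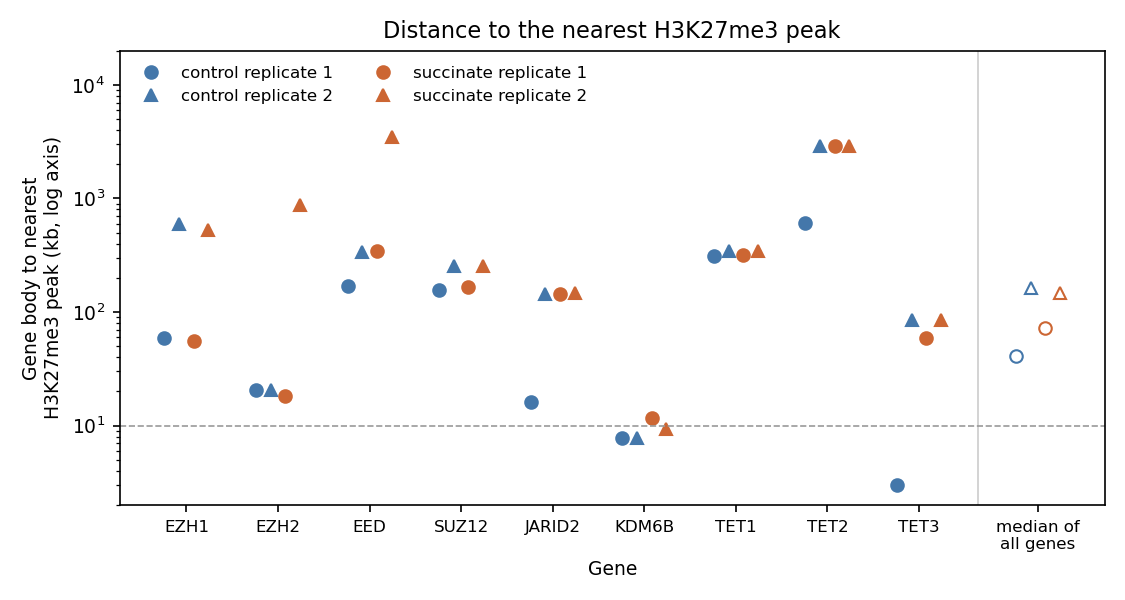
Distance from each gene body to the nearest H3K27me3 peak in kb on a log axis, with 1 point per library, control in blue and succinate in orange. Open symbols give the median of all protein-coding genes and the dashed line marks 10 kb. TET2 points lie at 613 to 2885 kb, and only KDM6B and TET3 have points below the dashed line.

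Other Polycomb and demethylase genes gave a scale for these values. Of all protein-coding windows, 16.8% had an H3K27me3 peak in every library and 64.9% had none in any. Among 7 PRC2 accessory subunits, 0 had an H3K27me3 peak in every library and 2 had one in any. PHF19, a subunit that reads H3K36 methylation, had a cover of 17.8%, 0%, 12.0% and 15.1% in control replicates 1 and 2 and succinate replicates 1 and 2. PHF1, a related subunit, had 21.9% in control replicate 1 and 0% in the others. Among 8 subunits of PRC1, the complex that binds H3K27me3 and ubiquitinates histone H2A, 5 had a peak in any library and 2 in every library. CBX8, a reader of H3K27me3, had 64.9% and 41.5% in control, against 74.9% and 94.3% with succinate. CBX2, another reader, had 49.4%, 4.09%, 47.8% and 75.7% in that order, and RING1, a ubiquitin ligase subunit, had 29.9%, 0%, 33.4% and 39.3%. CBX8 and CBX2 thus carried the mark in every library, while the 5 PRC2 genes lacked it, as most windows did. Of 16 Jumonji demethylases other than KDM6B, which use the same cofactors, 15 had no H3K27me3 in any library. KDM5B, an H3K4 demethylase, was the other, with 4.68% in control replicate 1, 0.455% in succinate replicate 1 and 0% in the remaining libraries.

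**Figure D3:**
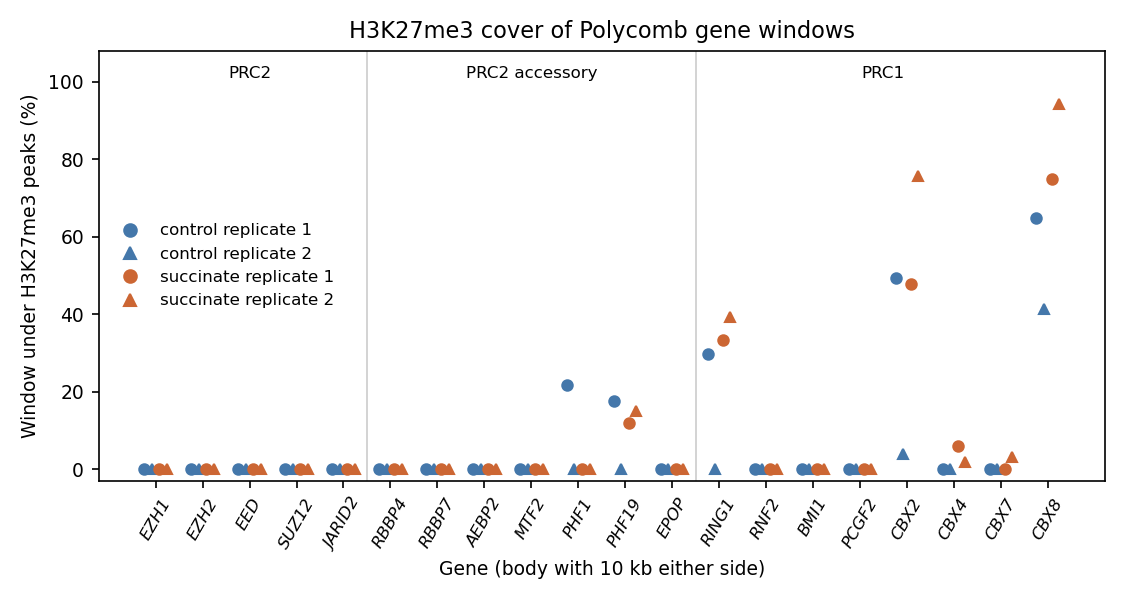
Percentage of each window under H3K27me3 peaks, with 1 point per library, control in blue and succinate in orange, for the 5 PRC2 genes, 7 PRC2 accessory subunits and 8 PRC1 subunits. The PRC2 genes are all at 0%, while CBX8 lies between 41.5% and 94.3%.

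Ksu covered more of the 9 windows in the succinate libraries, as it did over most genes. The 9 windows together had a cover of 2.31% and 4.22% in control (mean 3.27% ± 1.35, SD, n = 2) and 6.97% and 14.9% in succinate (10.9% ± 5.62, SD, n = 2). The difference was 7.68 percentage points, beyond the pooled SD of 4.09, with an exact permutation p of 0.333. It was 3.71 without succinate replicate 2, 11.7 without succinate replicate 1, 1.63 at equal numbers of peaks and 0.777 at a common lowest signal. The 5 PRC2 windows had 2.47% and 4.18% in control, against 6.10% and 15.2% with succinate, and the 4 oxygenase windows had 2.13% and 4.27%, then 7.98% and 14.6%. The groups did not overlap for either set, and the higher value of each treatment was its replicate 2, the library with more peaks. Relative to all protein-coding windows the 9 windows had 0.972 and 0.773 times the cover in control and 1.05 and 1.25 times in succinate. That difference was 0.276, with a pooled SD of 0.141 and an exact permutation p of 0.333. It was 0.176 without control replicate 2, and also without succinate replicate 2. Set against the gene windows of each member's own chromosome, a comparison added after the values were seen, the ratios were 0.718 and 0.686 in control, against 0.870 and 1.13 with succinate.

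Single members spread around this level. In 7 of 9 windows both succinate libraries had more cover than both control libraries, and 60.3% of all protein-coding windows showed this. The reverse was found in 0 members and 0.449% of all windows. For relative cover the count was 1 of 9 against 35.8% of all windows, with 0 of 9 in reverse against 7.65%. When each list was reduced to its 76702 strongest peaks by total signal, the count was 3 of 9 against 22.0%, with 0 in reverse against 5.41%. A Ksu peak was found in every library in 6 of 9 windows and in 44.6% of all windows. The median difference over the members was 6.33 percentage points beside 5.47 over all genes, and for relative cover 0.286 beside 0.266. The medians of the members were thus close to those of protein-coding genes in general.

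**Figure D4:**
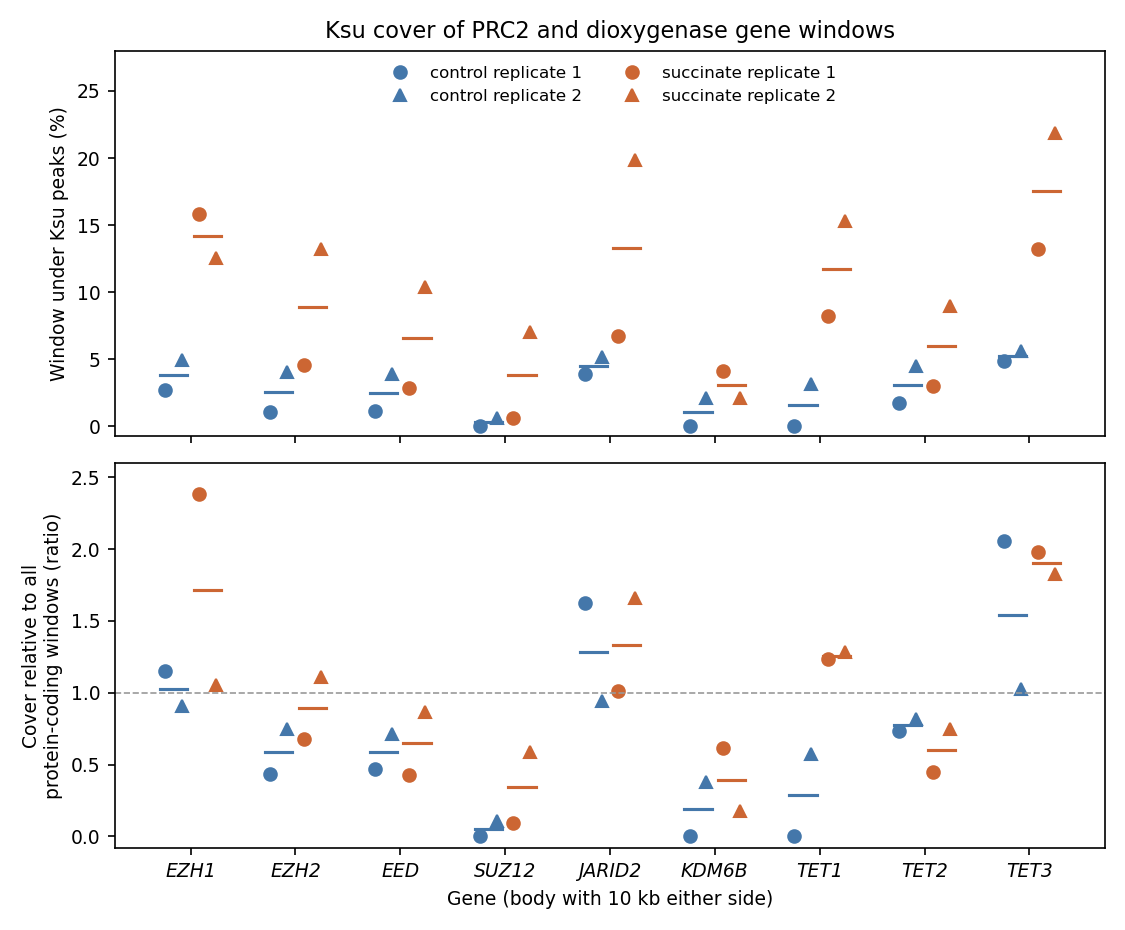
Ksu cover of each window in percent (upper panel) and relative to all protein-coding windows of the same library (lower panel), with 1 point per library, short lines at the mean of the 2 libraries, control in blue and succinate in orange. TET3 has the highest cover in succinate replicate 2, at 21.9%, and in the lower panel only TET1 keeps both succinate points above both control points.

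Among the catalytic subunits, EZH1 (gene 2145, chr17:42700275-42745040, minus strand) had a Ksu cover of 2.73% and 4.94% in control, against 15.8% and 12.6% with succinate. The difference of 10.4 percentage points was large against its pooled SD of 1.97 (exact permutation p = 0.333; Benjamini-Hochberg adjusted over all genes, 0.549). Its 2 succinate libraries were alike, and succinate replicate 1 was the higher of them, although that library has fewer peaks than replicate 2. In succinate replicate 1, 33.8% of the 10 kb after the EZH1 end was under peaks. At 76702 peaks per library the cover was 2.73% and 0% in control, against 9.34% and 3.52% with succinate, so the order held, and at a common lowest signal the difference was 3.37 percentage points. Relative cover was 1.15 and 0.905 in control, against 2.38 and 1.05 with succinate, and these overlapped. EZH2 (gene 2146, chr7:148807383-148884291, minus strand) had 1.03% and 4.07% in control, against 4.53% and 13.2% with succinate. Its difference of 6.33 percentage points exceeded the pooled SD of 4.61, but control replicate 2 and succinate replicate 1 were close together. It was 1.98 without succinate replicate 2 and 10.7 without succinate replicate 1, and 0.893 at equal numbers of peaks, where the treatments overlapped. Where peaks of all libraries had to reach the same total signal in steps, the sign for EZH2 turned, to -0.52 percentage points. A step may differ between libraries, so that setting is not a like-for-like comparison.

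EED (gene 8726, chr11:86244753-86287615, plus strand) had a cover of 1.11% and 3.88% in control, against 2.86% and 10.3% with succinate. The treatments overlapped, and the difference of 4.10 percentage points was about the pooled SD of 4.0. It was 0.359 without succinate replicate 2, 7.85 without succinate replicate 1 and 2.72 without control replicate 1. At 76702 peaks per library EED had 1.11% and 0% in control, against 2.28% and 2.72% with succinate, with no overlap. SUZ12 (gene 23512, chr17:31937007-32001038, plus strand) had the lowest relative Ksu cover on average. Its cover was 0% and 0.591% in control, against 0.616% and 7.03% with succinate, so 3 libraries were at or near zero and succinate replicate 2 stood alone. Its difference of 3.53 percentage points was 0.321 without that library and 6.74 without succinate replicate 1. Between 0% and 23.6% of all protein-coding windows had a lower cover than SUZ12 in the 4 libraries, the lowest placing of any member on average. A transcribed pseudogene copy, SUZ12P1, lies 1.14 Mb before SUZ12 at chr17:30709608-30792830. Its own window had 0% and 0.783% in control, against 1.05% and 8.17% with succinate, nearly the values of SUZ12. How reads matching both copies were placed is not given in the sources used here, and its part in the low values was not tested.

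JARID2 (gene 3720, chr6:15246069-15522042, plus strand) has the longest body of the group, 276 kb. Its Ksu cover was 3.86% and 5.14% in control, against 6.73% and 19.8% with succinate, a difference of 8.77 percentage points with a pooled SD of 6.58. It was 2.23 without succinate replicate 2 and 15.3 without succinate replicate 1. At equal numbers of peaks JARID2 had 3.86% and 1.09% in control, against 3.23% and 5.51% with succinate, which overlapped. Succinate replicate 2 alone had 98 peaks in this window, against 10, 34 and 34 in the other libraries. Relative cover was 1.63 and 0.941 in control, against 1.01 and 1.66 with succinate, so the treatments overlapped on this scale.

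Among the oxygenases, KDM6B had little Ksu, at 0% and 2.07% in control, against 4.08% and 2.13% with succinate. The difference of 2.07 percentage points was the smallest of the 9, and the lower succinate value was barely above the higher control value. It was 1.04 without control replicate 1, 1.10 without succinate replicate 1 and 3.10 without control replicate 2. Relative cover was 0 and 0.378 in control, against 0.614 and 0.178 with succinate, again overlapping. TET1 (gene 80312, chr10:68560337-68694487, plus strand) had 0% and 3.15% in control, against 8.20% and 15.3% with succinate, and the 10.2 percentage points between the means were well above the pooled SD of 3.89 (exact permutation p = 0.333; Benjamini-Hochberg adjusted over all genes, 0.549). Without succinate replicate 2 the TET1 difference was 6.63. Its relative cover was 0 and 0.577 in control, against 1.23 and 1.28 with succinate. TET1 is the 1 member whose treatments did not overlap on this scale, and it is one of the 3 that did not overlap at equal numbers of peaks, where it had 0% and 0.337% in control, against 3.0% and 2.16% with succinate. The share of all windows with lower cover than TET1 was 0% and 46.9% in control, against 74.1% and 80.3% with succinate.

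TET2 (gene 54790, chr4:105145875-105279803, plus strand) did not separate by treatment. Its cover was 1.74% and 4.46% in control, against 2.99% and 8.96% with succinate, and the difference of 2.88 percentage points was below the pooled SD of 3.28. It was 5.86 without succinate replicate 1 and 1.51 without control replicate 1. Without succinate replicate 2 it was -0.11 percentage points, at equal numbers of peaks -0.23 and at a common lowest signal -0.25. Relative cover of TET2 was 0.732 and 0.817 in control, against 0.450 and 0.750 with succinate. TET3 had the highest relative Ksu cover on average. Its cover was 4.90% and 5.61% in control, against 13.2% and 21.9% with succinate. Its control libraries were alike, its succinate libraries were both far above them, and the difference of 12.3 percentage points was the largest of the 9 in the full lists (pooled SD 4.36, exact permutation p = 0.333). It was 7.92 without succinate replicate 2. At equal numbers of peaks TET3 had 4.90% and 1.51% in control, against 3.13% and 7.82% with succinate, which overlapped, and the difference of 2.27 percentage points was below those of EZH1 (5.06) and TET1 (2.41). At a common lowest signal it was 0.909. Relative cover of TET3 was 2.06 and 1.03 in control, against 1.98 and 1.83 with succinate, so control replicate 1, whose list is the shortest, already had TET3 above most genes. Between 74.9% and 97.0% of all windows had less cover than TET3 in the 4 libraries.

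Averaged over the 4 libraries, relative cover ran from 1.73 in TET3 through 1.37 in EZH1, 1.31 in JARID2, 0.773 in TET1, 0.742 in EZH2, 0.687 in TET2, 0.618 in EED and 0.293 in KDM6B to 0.197 in SUZ12. Chromosomes differed in Ksu cover, which this order does not take out. In control replicate 1 it was 5.15% over the gene windows of chromosome 2, which holds TET3, and 1.28% over those of chromosome 17. Neighbours in this order differed by more than their pooled SD at 2 places. Here the SD of each gene was taken over all 4 libraries, so it holds the treatment difference as well as the replicates. JARID2 was 0.537 above TET1 (pooled SD 0.509) and EED was 0.326 above KDM6B (pooled SD 0.237). The gap below JARID2 was that of the control libraries, where TET1 averaged 0.288 and JARID2 1.28. With succinate TET1 averaged 1.26 and JARID2 1.34, and TET1 was above JARID2 in replicate 1 and above EZH1 in replicate 2. Neighbours at the remaining places were within the spread of the libraries.

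Where Ksu was listed within the windows was mostly not shared between libraries. The peaks of the 4 lists merged into 426 regions, of which 329 (77.2%) were found in 1 library, 81 (19.0%) in 2, 15 (3.52%) in 3 and 1 (0.235%) in all 4. Over all protein-coding windows these shares were 77.8%, 17.9%, 3.85% and 0.457%. Regions found in both succinate libraries and in neither control library numbered 32 (7.51%, against 6.0% over all windows). The reverse numbered 2 of 426, beside 2511 of 536489 over all windows. Both were at TET2, and so few mark no trait of that gene. Succinate replicate 2 alone accounted for 212 regions (49.8%, against 43.0%). JARID2 had 11 of the 32, TET3 10, TET1 6, EZH1 2, EZH2 2 and TET2 1, while EED, SUZ12 and KDM6B had none. Of the 16 regions in 3 or more libraries, 13 were in gene bodies. Gene bodies also make up most of the window bases, so no preference is read from this.

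TET3 held 6 of those 16 regions, all in its body, which is 152 kb of its 172 kb window. The single region found in all 4 libraries was among them. That region is chr2:74037998-74041030, 3033 bases centred 55.9 kb into the gene, with peaks covering 2550 and 392 bases in control and 508 and 840 bases in succinate. Their highest signals were 36 and 14 steps in control, against 12 and 5 steps with succinate, in lists whose median heights were 33, 12, 23 and 18 steps, so heights were not compared between libraries. A second TET3 region, chr2:74019018-74020411, was in every library but control replicate 1. Another, chr2:74110568-74112168, was in the same 3 libraries. At KDM6B the 1 region in 3 libraries, chr17:7823035-7824487, lies 10.5 kb before its start inside DNAH2. It falls within the H3K27me3 peaks of both control libraries and of succinate replicate 2, and just beyond the end of that of succinate replicate 1.

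**Figure D5:**
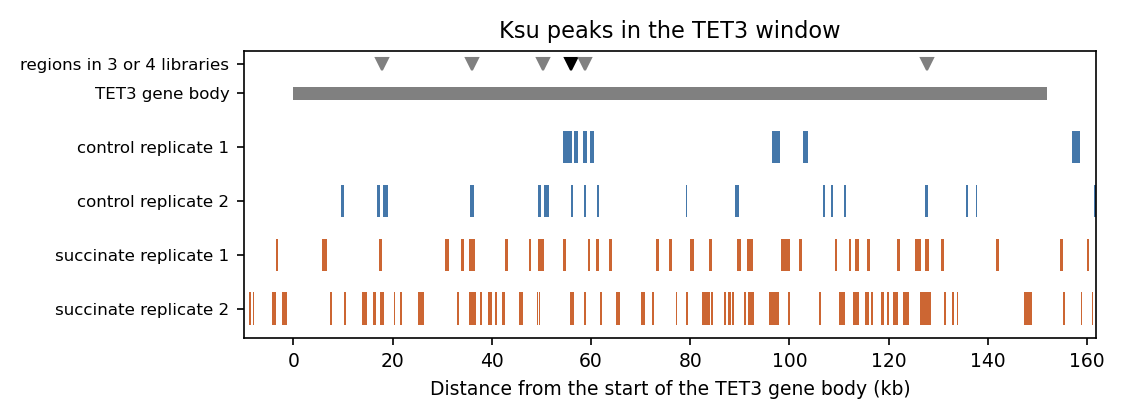
Ksu peaks in the TET3 window against distance from the start of the gene body in kb, with 1 row per library, control in blue and succinate in orange. Bars are peaks, triangles mark the 6 regions found in 3 or more libraries, and the black triangle marks the one found in all 4, at 55.9 kb. Control replicate 1 has 7 peaks and succinate replicate 2 has 60.

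Few of the 16 starts had a Ksu peak close by. The starts are not all separate loci, since those of TET1 at bases 68600268 and 68600474 share most of their surroundings. A peak can thus count at more than 1 start, in the counts and in the cover. Within 500 bases a Ksu peak was present at 0 and 2 starts in control and at 1 and 1 in succinate. Those are 0% and 12.5% of the member starts in control, and 6.25% in each succinate library. Of all starts, 2.82% and 13.8% had such a peak in control, and 12.3% and 21.4% with succinate. Beside the peaks over the TET1 and TET3 starts given above, control replicate 2 had one 150 bases from the TET1 start and succinate replicate 2 had one 471 bases from the EED start. Cover within 500 bases was 0% and 3.93% in control, against 6.0% and 0.188% with succinate, beside 1.49% and 4.03%, then 5.26% and 7.60%, for all starts. At the starts the treatments therefore overlapped for these genes. Between 1 and 5 kb before the starts, peaks were present at 1 and 4 of 16 in control and at 9 and 6 in succinate. Cover in that span was 1.07% and 3.09% in control, against 7.18% and 7.17% with succinate, beside 1.43% and 3.90%, then 5.21% and 9.20%, for all starts. Between 1 and 5 kb after the starts, peaks were present at 0 and 2 of 16 in control and at 6 and 9 in succinate. Over all starts the shares with a peak before the start were 6.69% and 31.1% in control, against 31.1% and 55.8% with succinate, and after the start 6.32% and 31.6%, then 31.8% and 57.5%. All starts were thus also higher with succinate in either flank. At EZH2 and JARID2 the nearest Ksu peak was never closer to a start than 1751 bases, in succinate replicate 2 at the second JARID2 start.

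Related genes showed the same direction for Ksu. Both succinate libraries exceeded both control libraries in 6 of 7 PRC2 accessory windows, 5 of 8 PRC1 windows and 11 of 16 other Jumonji demethylase windows, beside 60.3% of all windows. The reverse was found in 0, 2 and 0 of them. On relative cover the counts were 4 of 7, 4 of 8 and 7 of 16, beside 35.8% of all windows.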

How the data were processed

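Each library came as a list of peaks made with SEACR on the human build hg38, per the submitters' processing notes, with 1 list for each library. The deposited signal of a peak (its total and its highest) is on a scale of its own in each library, and the values of every list were whole multiples of 1 step. What a step stands for, the aligner, the scaling, the control track and the threshold are not given in the sources used here. Read depth is therefore unknown, and no counting interval is given.

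From the lists, the percentage of bases under the merged peaks was computed with Python 3.11.15 and numpy 2.4.6 for the windows (gene body with 10 kb either side) of 20037 protein-coding genes on 24 chromosomes (RefSeq, GRCh38.p14). Windows of neighbouring genes can overlap. Treatments were compared by exact two-sided permutation, with Benjamini-Hochberg adjustment over all genes, and the calculation was tested on simulated data. Alternatives were the stronger 50% of peaks, equal numbers of peaks, a common lowest total signal in steps, other window widths, promoter windows, presence at 5% of a window, each library left out and a replicate block. For Ksu the common lowest signal was the 8977 steps of control replicate 1, where succinate replicate 2 lists peaks from 49 steps. It treats steps as equal between libraries, which is not known. All 9 members are named, with at most the 3 genes of each related list that had the highest mean H3K27me3 cover. The result for 1 hepatocyte marker is not reported here. The members and lists were chosen with earlier results of these data known.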

Additional observations from a re-analysis of the deposited data

How the results depend on the processing

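Of 278 alternative values for 26 results, 92 were 0 as in the reported result, mostly H3K27me3 of members without a peak. A further 151 kept their direction, 55 of them with a size that differed by over 1.5 times, 29 moved to or from 0 or, for a count, by over 1.5 times, and 6 reversed. The replicate-block values counted among the 278 equal the reported ones by construction. The Ksu difference of the 9 windows stayed above 0 throughout, at 5.21 percentage points with the stronger 50% of peaks, 1.63 at equal numbers of peaks, 0.777 at a common lowest signal and 3.71 to 11.7 with 1 library left out. The relative difference was 0.431, 0.570 and 0.894 in the first 3 of these, and 0.176 to 0.376 with 1 library left out. Members with Ksu higher in both succinate libraries fell to 3 at equal numbers of peaks and to 1 at a common lowest signal. Members with Ksu in every library were 3, 0 and, where a peak set had to fill 5% of a window, 0. Reversed values were those of TET2 at equal numbers of peaks (-0.23), at a common lowest signal (-0.25) and without succinate replicate 2 (-0.11, with 5.86 the highest value with a library left out), of EZH2 at a common lowest signal (-0.52), of TET3 in promoter windows (-14.2) and of H3K27me3 at KDM6B with 50 kb either side (2.65). The H3K27me3 difference ran from -0.70 to -0.17 with 1 library left out. With the gene body alone the H3K27me3 differences, plain and relative, were 0. Members with H3K27me3 in every library numbered 1 with 50 kb either side, and 0 to 1 with a library left out, the 1 being KDM6B without succinate replicate 1.

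The labels give replicates a number only, with 2 pairs, so samples were not treated as paired. A replicate block cannot change the differences of means here, since each block holds both treatments equally. They stayed at 7.68 and 0.28 for Ksu and at -0.44 and -0.06 for H3K27me3. The paired Ksu differences were 4.66 and 10.7 percentage points. Deviations from the group means correlated at 0.13 for Ksu and 0.34 for H3K27me3 over all gene windows. The cause of the moves was not tested. Library size limits what can be read from cover: the Ksu lists span 76702 to 629903 peaks.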
